A study of Homo sapiens with 8 samples.

Results

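The 10 genes described here, ANKRD1, CTGF, CYR61, AMOTL1, AMOTL2, AXL, F3, LATS2, PTPN14 and NT5E, are transcriptional targets of the coactivators YAP and TAZ. They were chosen by symbol, with earlier results of these data known, and each had 1 row among the 28520 rows of every deposited table. The values came from 8 RNA-seq libraries of 4 established human pancreatic ductal adenocarcinoma (PDA) lines, Panc.8, HPAF-II, Panc.05.04 and Panc.10.05. In each line 1 library was made after a control small interfering RNA (siRNA) and 1 after an siRNA against PDX1, a homeobox factor of pancreas development, both at 3 days. The 4 lines were therefore the replicates of the treatment, and a line had none of its own. P-values other than those quoted as the authors' set a mean ratio between treatments against the spread of that ratio between lines. Levels are in FPKM, a fragment count divided by transcript length and by library size, so genes can be compared per length within a library. Whether the tables of the 4 lines were scaled together is not stated, and every comparison of a level between lines carries that limit.

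YAP and TAZ (gene WWTR1) bind no DNA on their own and act through the TEAD transcription factors. The kinases LATS1 and LATS2, at the end of the Hippo kinase cascade, phosphorylate both coactivators and keep them out of the nucleus, while stretched or sparse cells hold them in it. In the pancreas YAP is found in duct cells rather than acinar cells. Several targets feed back on the pathway: LATS2, AMOTL1, AMOTL2 and PTPN14 restrain YAP, whereas CTGF and CYR61 are secreted into the matrix and AXL, F3 and NT5E sit at the cell surface.

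The upstream sequences of CTGF and ANKRD1 are shown because these were the members at least 2-fold higher in Panc.05.04, and that of F3 because it was the member that was lower there. Each is the 250 bases before the RefSeq transcription start (GRCh38.p14, minus strand in all 3 genes, printed 5′ to 3′ on the gene's strand). Capitals mark GGAATG, the core of TEAD binding sites, searched on both strands, and TGANTCA, which takes in the AP-1 consensus and reads the same on both strands. The N in TGANTCA takes any base, so a match need not hold that consensus.
CTGF, chr6:131951373-131951622: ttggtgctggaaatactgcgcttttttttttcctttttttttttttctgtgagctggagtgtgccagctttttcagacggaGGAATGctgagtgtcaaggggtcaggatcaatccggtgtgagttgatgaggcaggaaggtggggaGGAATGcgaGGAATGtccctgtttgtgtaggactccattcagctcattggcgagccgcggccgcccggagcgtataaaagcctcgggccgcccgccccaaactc
ANKRD1, chr10:90921088-90921337: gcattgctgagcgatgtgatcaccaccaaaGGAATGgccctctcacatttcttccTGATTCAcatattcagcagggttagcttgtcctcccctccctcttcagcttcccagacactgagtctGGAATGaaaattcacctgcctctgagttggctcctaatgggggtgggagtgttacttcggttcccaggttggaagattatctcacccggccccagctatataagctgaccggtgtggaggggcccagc
F3, chr1:94541760-94542009: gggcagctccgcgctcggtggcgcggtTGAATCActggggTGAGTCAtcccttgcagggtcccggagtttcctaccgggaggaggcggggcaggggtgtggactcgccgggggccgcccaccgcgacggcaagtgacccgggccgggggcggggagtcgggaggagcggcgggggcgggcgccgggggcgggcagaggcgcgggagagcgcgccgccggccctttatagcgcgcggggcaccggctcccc
CTGF held 3 GGAATG matches, at 169 to 164, 104 to 99 and 95 to 90 bases before the start. ANKRD1 held 2, at 220 to 215 and 128 to 123 bases, and 1 TGANTCA at 195 to 189 bases. F3 held 2 TGANTCA matches, at 223 to 217 and 210 to 204 bases, and no GGAATG. No printed match overlapped another. RefSeq windows were matched for 9 members, all but CYR61, whose upstream sequence was not searched. PTPN14 was the other member found with GGAATG, 1 match on the reverse strand. Among 35116 RefSeq windows of the same length, 11.9% held GGAATG at least once, 0.94% at least 2 times and 0.0826% at least 3 times. TGANTCA was held at least once by 6.57% and at least 2 times by 0.402%. A match of letters is a description and not a measured binding site. The authors' rows begin upstream of the RefSeq start by 6 bases in CTGF, 188 in ANKRD1 and 98 in F3, so that part of each window lies inside its row.

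**Figure D1:**
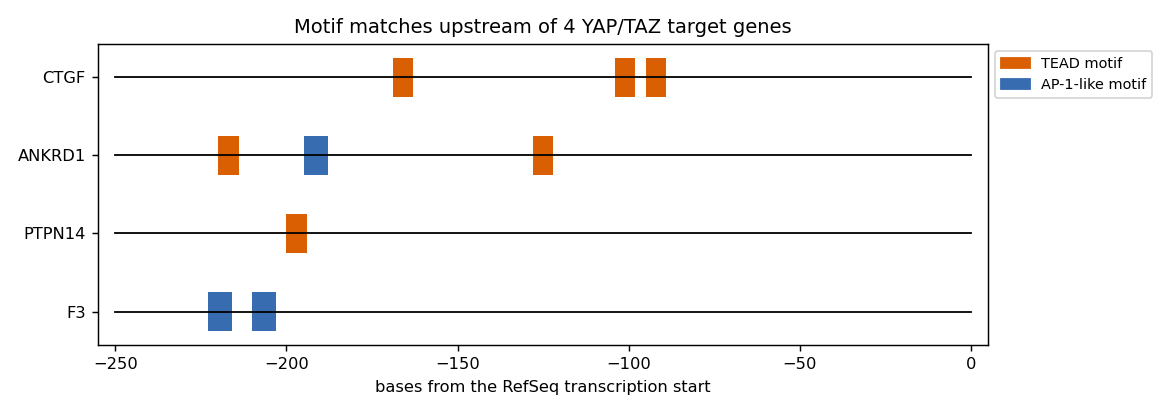
Horizontal lines are the 250 bases before the RefSeq start of CTGF, ANKRD1, PTPN14 and F3, with distance from the start in bases on the x axis. Orange blocks are GGAATG matches on either strand, 3 in CTGF, 2 in ANKRD1 and 1 in PTPN14, and blue blocks are TGANTCA matches, 1 in ANKRD1 and 2 in F3.

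The files place the rows as follows in hg38, counted from 1. All 10 genes are protein-coding in GENCODE. CTGF (named CCN2 in RefSeq) lies on chromosome 6 between 131948177 and 131951378, and CYR61 (CCN1) on chromosome 1 between 85580761 and 85583965. ANKRD1 lies on chromosome 10 between 90912100 and 90921275. The row of AMOTL1 is on chromosome 11 between 94768342 and 94876753, that of AMOTL2 on chromosome 3 between 134355345 and 134375417, and that of LATS2 on chromosome 13 between 20973036 and 21061583. PTPN14 is on chromosome 1 between 214348696 and 214551681, F3 on the same chromosome between 94529176 and 94541857, AXL on chromosome 19 between 41219199 and 41261767, and NT5E on chromosome 6 between 85449584 and 85495791. AMOTL2 was the only member whose row overlapped another, a microRNA gene listed at 0 in the 8 libraries.

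PDX1 was lower with its siRNA in 4 of 4 lines, at 40.7% of control in Panc.8, 55.9% in HPAF-II, 29.5% in Panc.05.04 and 53.1% in Panc.10.05. On the log2(FPKM + 1) scale it averaged -0.52 ± 0.30 (SD, n = 4 lines; exact two-sided sign-flip permutation test, p = 0.125, the smallest 4 lines allow). PDX1 was at 9.61 (control siRNA) and 5.37 (PDX1 siRNA) FPKM in HPAF-II, 1.41 and 0.416 in Panc.05.04 and 0.914 and 0.372 in Panc.8. The percentages of Panc.05.04 and Panc.8 thus rest on low values. In Panc.10.05 PDX1 was at 0.188 and 0.0998 FPKM, close to nothing in either library, and the authors did not test it there. The row of PDX1 on chromosome 13 begins at 27829759, upstream of the GENCODE start at 27920020. It overlaps the row of PDX1-AS1, which reached 0.391 FPKM, and the part of that gene in the PDX1 values was not tested. The epithelial markers EPCAM, CDH1, KRT8, KRT18 and KRT19 summed to between 733 and 5117 FPKM. In Panc.05.04 CDH1 (1.40 and 2.12 FPKM) and KRT19 (1.55 and 0.921 FPKM) were low, while KRT8 and KRT18 lay between 305 and 494 FPKM. Elsewhere CDH1 was at 76.9 FPKM or more and KRT19 at 1094 FPKM or more. EPCAM was also lowest in Panc.05.04, at 32.0 and 47.2 FPKM. Of 8 fibroblast markers 1, COL1A1, reached 1 FPKM, and of 4 endothelial markers none did. Of 5 immune genes 2 reached 1 FPKM, while the pan-leukocyte gene PTPRC stayed at or under 0.0116 FPKM. The macrophage marker CD68 was at 8.16 and 18.4 FPKM in Panc.8, 68.7 and 67.0 in HPAF-II, 20.7 and 8.35 in Panc.05.04 and 50.1 and 75.7 in Panc.10.05, so it was at least 2-fold higher with PDX1 siRNA in Panc.8 and lower in Panc.05.04. Lysozyme, LYZ, was at 1591 and 1328 FPKM in HPAF-II and at or under 4.36 in the other lines. The part of these genes in the values of the 10 was not tested. The spacing of the lowest FPKM values put the depth of the PDX1 siRNA library at 0.646 to 1.40 times that of its control, an estimate that is unsure because of a second spacing, and total depth is unknown.

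Across the 4 lines no YAP/TAZ target passed the test for a change with PDX1 siRNA. All 10 passed the filter of a mean of at least 1 FPKM, and 0 of 10 passed an adjusted p of 0.05 in limma with the line as block, fitted on the 12110 genes tested (0% called). At an unadjusted p under 0.05 there were 0 of 10 members, against 440 genes or 3.63% of those tested. AMOTL2 had the smallest unadjusted p, 0.087 (adjusted p = 0.898 with limma), with a mean log2 ratio of 0.20 ± 0.20 (SD, n = 4 lines). It was also the only member with 1 sign in 4 of 4 lines, higher in each, where 7.45% of all genes were higher and 5.8% lower in every line. In bulk RNA a lower level per cell and fewer cells that express a gene cannot be told apart.

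**Figure D2:**
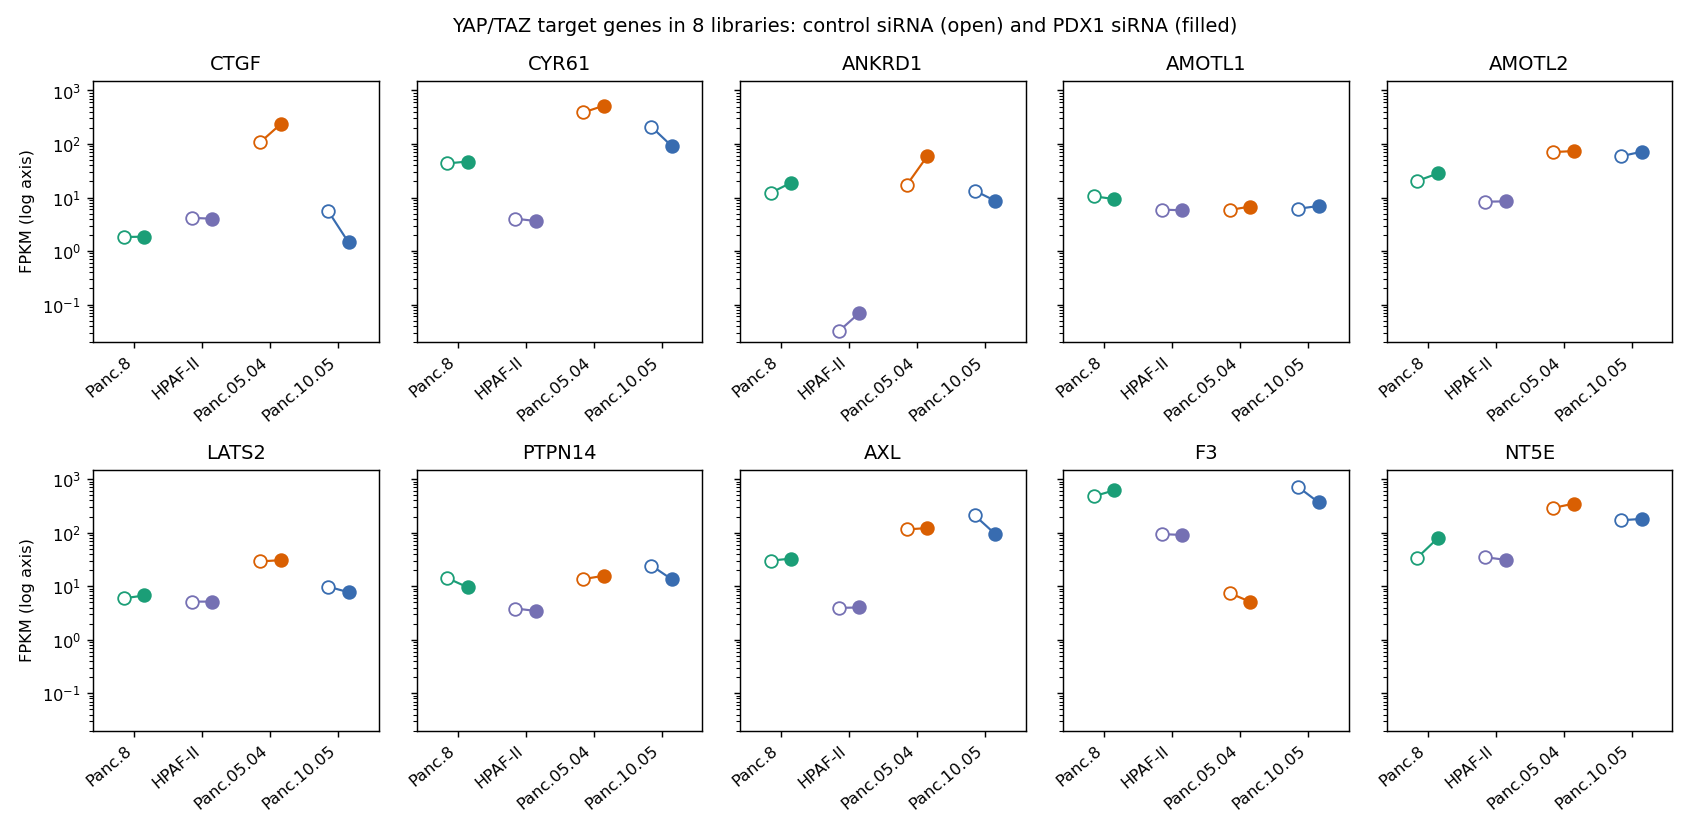
FPKM on a log axis for each of the 10 genes in the 4 lines, with open circles for control siRNA and filled circles for PDX1 siRNA, 1 library each, joined by a line. CTGF and ANKRD1 slope upward in Panc.05.04, CTGF, CYR61 and AXL slope downward in Panc.10.05, and the paired circles of HPAF-II lie close together in all genes but ANKRD1, which is under 0.1 FPKM there.

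The members that behaved most differently between lines were the secreted and nuclear effectors. CTGF, a matricellular protein that organises extracellular matrix, had 1.83 (control siRNA) and 1.85 (PDX1 siRNA) FPKM in Panc.8, 4.17 and 4.02 in HPAF-II, 107 and 234 in Panc.05.04, and 5.60 and 1.45 in Panc.10.05. The PDX1 siRNA library was thus the higher one by 2.18-fold in Panc.05.04 and the lower one by 3.87-fold in Panc.10.05, with FPKM ratios of 1.01 in Panc.8 and 0.964 in HPAF-II. The levels of the treatments overlapped across lines, and the mean log2 ratio was -0.09 ± 1.04 (SD, n = 4 lines). Without Panc.10.05 that mean was 0.36. CYR61, a second matricellular protein of the same CCN family, was at 43.4 and 47.0 FPKM in Panc.8, 4.02 and 3.64 in HPAF-II, 389 and 519 in Panc.05.04, and 209 and 91.0 in Panc.10.05. It followed the order of CTGF in direction, 1.34-fold higher in Panc.05.04 and 2.29-fold lower in Panc.10.05, with a mean log2 ratio of -0.19 ± 0.70 (SD, n = 4 lines) that was 0.14 without Panc.10.05.

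ANKRD1, an ankyrin repeat protein known as a transcriptional cofactor in heart muscle, was at 12.2 and 18.9 FPKM in Panc.8, 17.1 and 58.8 in Panc.05.04 and 13.4 and 8.68 in Panc.10.05. HPAF-II had next to none, 0.0317 and 0.0690 FPKM, and its ratio is not read. ANKRD1 was 3.44-fold higher with PDX1 siRNA in Panc.05.04, 1.55-fold higher in Panc.8 and 1.55-fold lower in Panc.10.05. Its mean log2 ratio, HPAF-II included, was 0.45 ± 0.97 (SD, n = 4 lines; adjusted p = 0.898 with limma). That mean was 0.02 without Panc.05.04 and 0.79 without Panc.10.05. With control siRNA the 3 lines that express it lay between 12.2 and 17.1 FPKM, and with PDX1 siRNA between 8.68 and 58.8. In the authors' deposited table ANKRD1 and CTGF had q = 0.0209 in Panc.05.04, the only 2 members below 0.05 in any line, where the authors called 0.107% of the rows they tested higher and 0.157% lower. No member passed that threshold in Panc.8, where 0.93% were called higher and 0.0477% lower, in Panc.10.05, with 0.105% higher and 0.00809% lower, or in HPAF-II, with 0%. The authors' q of CTGF in Panc.10.05 was 0.669 at an unadjusted p of 0.0116, and that of CYR61 was 0.663.

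The 4 members that act on the pathway itself differed less. LATS2, the kinase that inactivates YAP and TAZ, was at 5.96 and 6.71 FPKM in Panc.8, 5.16 in both libraries of HPAF-II, 29.03 and 30.7 in Panc.05.04 and 9.81 and 7.72 in Panc.10.05. Its log2 ratios lay between -0.31 and 0.15, and its mean of -0.02 was 0.07 without Panc.10.05. AMOTL2, an angiomotin that tethers YAP at cell junctions, was at 20.4 and 28.1 FPKM in Panc.8, 8.35 and 8.48 in HPAF-II, 70.6 and 73.8 in Panc.05.04 and 59.4 and 71.8 in Panc.10.05. So in the line in which CTGF and CYR61 were more than 2-fold lower, AMOTL2 was 1.21-fold higher. AMOTL1, its paralog, was the steadiest member, between 5.76 and 10.5 FPKM over the 8 libraries with log2 ratios between -0.16 and 0.18. PTPN14, a phosphatase that binds YAP and promotes its exit from the nucleus, was at 14.2 and 9.53 FPKM in Panc.8, 3.83 and 3.45 in HPAF-II, 13.6 and 15.7 in Panc.05.04 and 24.3 and 13.4 in Panc.10.05. PTPN14 was lower with PDX1 siRNA in 3 of 4 lines (mean log2 ratio -0.32 ± 0.44, SD, n = 4 lines; adjusted p = 0.898 with limma). Without Panc.05.04 its mean was -0.49 at an unadjusted limma p of 0.0358 and an adjusted p of 0.789, and without Panc.10.05 it was -0.15. In the fit without Panc.05.04, 536 of 12110 genes had an unadjusted limma p under 0.05, and no other fit put a member there.

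The cell-surface members each had a pattern of their own. AXL, the receptor tyrosine kinase for GAS6, was at 30.1 and 32.8 FPKM in Panc.8, 3.94 and 4.004 in HPAF-II, 115 and 122 in Panc.05.04 and 209.95 and 94.5 in Panc.10.05. AXL was 1.02-fold to 1.09-fold higher in 3 lines and 2.22-fold lower in Panc.10.05, so that its mean log2 ratio of -0.23 ± 0.61 (SD, n = 4 lines) was 0.08 without that line. F3, tissue factor, which starts blood coagulation, was at 481 and 619.7 FPKM in Panc.8, 94.1 and 90.6 in HPAF-II, 7.39 and 5.09 in Panc.05.04 and 716 and 369 in Panc.10.05. It was the member that was lower in both Panc.05.04 (1.45-fold) and Panc.10.05 (1.94-fold, just short of 2-fold). NT5E, the ectonucleotidase CD73, which makes extracellular adenosine, was at 34.1 and 78.9 FPKM in Panc.8, 34.8 and 31.1 in HPAF-II, 291 and 349 in Panc.05.04 and 171 and 181 in Panc.10.05. NT5E was the 1 member at least 2-fold different in Panc.8, 2.31-fold higher, with a q of 0.138 in the authors' deposited table.

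**Figure D3:**
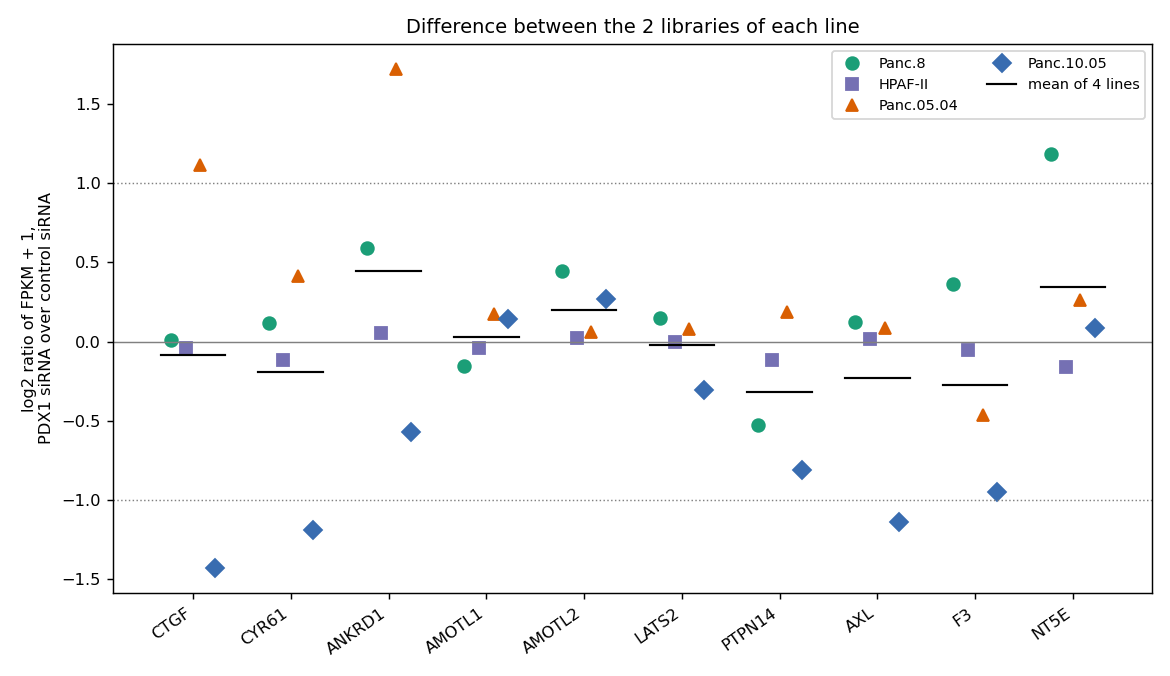
Log2 ratio of FPKM + 1, PDX1 siRNA over control siRNA, for the 10 genes, with 1 symbol per line, a black bar for the mean of the 4 lines and dotted lines at 2-fold. The diamonds of Panc.10.05 are lowest for CTGF (-1.43), CYR61 (-1.19) and AXL (-1.14), the triangles of Panc.05.04 are highest for ANKRD1 (1.72) and CTGF (1.12), and the squares of HPAF-II stay between -0.16 and 0.05. The highest square is ANKRD1, too low in HPAF-II to read a ratio from.

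Line by line, the 10 genes can be set against all genes of the same library pair, with no test since each line had 1 library per treatment. The 10 were chosen with earlier results of these data known, so the shares are a description. A gene counted as different when its ratio of FPKM + 1 was at least 2-fold and its higher library reached 1 FPKM. In Panc.05.04 2 of 10 members were at least 2-fold higher and 0 lower, against 0.403% higher and 0.639% lower among all genes at that level. The median log2 ratio of the members was 0.18 with 9 of 10 higher, and over all genes tested it was 0.03 with 55.8% higher. In Panc.10.05 0 members were at least 2-fold higher and 3 lower, against 3.09% and 1.71% of all genes. There the median of the members was -0.69 with 7 of 10 lower, and that of all genes tested was -0.0039 with 50.5% lower. AMOTL2, AMOTL1 and NT5E were the 3 members not lower in Panc.10.05, with log2 ratios of 0.27, 0.14 and 0.08.

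In Panc.8, 1 of 10 members was at least 2-fold higher and 0 lower, against 1.69% and 0.197% of all genes, with a median log2 ratio of 0.13 (8 of 10 higher, against 48.1% of all genes tested). In HPAF-II, 9 members reached 1 FPKM and 0 were 2-fold different either way, against 0.192% higher and 0.166% lower. The median over all 10, ANKRD1 included, was -0.04. HPAF-II had the highest PDX1 level. Its members ranged from -0.16 to 0.05, where the upper end is ANKRD1, too low there to read a ratio from. The next highest was AMOTL2 at 0.02. A link of the PDX1 level with this range was not tested. CTGF was the 1 member past 2-fold in opposite directions in 2 lines, and the difference between the lines could not be tested without replicates. The SD of the log2 ratios over all genes tested was 0.25 in HPAF-II, 0.32 in Panc.05.04, 0.41 in Panc.8 and 0.49 in Panc.10.05.

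Between lines, the mean level of a member differed by between 1.70-fold (AMOTL1) and 119-fold (CYR61), with ANKRD1, which HPAF-II nearly lacked, beyond that. Both HPAF-II libraries lay below the other 6 for 6 of 10 members (ANKRD1, CYR61, AMOTL2, AXL, LATS2 and PTPN14), against 20.8% of all genes tested. Both Panc.05.04 libraries lay above the other 6 for 4 members (CTGF, CYR61, LATS2 and NT5E), against 17.5% of all genes, and below them for 1, F3, against 22.5%. AMOTL1 had both Panc.8 libraries above the other 6, as 18% of all genes did. No member lay wholly below the rest in Panc.8 (13.9% of all genes), wholly above in HPAF-II (19.7%), or wholly above or below in Panc.10.05 (14.6% and 12.8%). CYR61 averaged 454 FPKM over the 2 libraries of Panc.05.04 and 3.83 over those of HPAF-II, 119 times as much, and its line order, Panc.05.04, Panc.10.05, Panc.8, HPAF-II, had no neighbours whose libraries overlapped. LATS2 had the same order, also without overlap, from 29.8 down to 5.16 FPKM. For CTGF, Panc.05.04 at a mean of 170.4 FPKM stood apart, and HPAF-II, Panc.10.05 and Panc.8 followed at 4.09, 3.53 and 1.84 FPKM, with Panc.10.05 overlapping both of its neighbours.

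For AMOTL2 and AXL the 2 leading lines, Panc.05.04 and Panc.10.05, overlapped, and Panc.8 and HPAF-II followed without overlap. PTPN14 had Panc.10.05 first, overlapping Panc.05.04, which in turn overlapped Panc.8, and HPAF-II last. NT5E ran from a mean of 319.9 FPKM in Panc.05.04 to 175.9 in Panc.10.05, with Panc.8 and HPAF-II overlapping below. F3 had another order: Panc.8 (550.3 FPKM) and Panc.10.05 (542 FPKM) overlapped at the top, HPAF-II followed at 92.4 and Panc.05.04 came last at 6.24. Over the 8 libraries, 34 of 45 pairs of members had a positive Pearson correlation of log2(FPKM + 1), with a median of 0.64. The highest was 0.97 for AMOTL2 and AXL, and the lowest -0.92 for CTGF and F3. These 8 points are 4 lines with 2 libraries each, so the values mostly describe line differences.

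The genes whose levels were most like a member were sought among 6521 other genes with a mean of at least 5 FPKM and a log2 range of at least 1. CTGF was followed most closely by EPG5 (r = 0.995), SLC39A14 (0.991) and ICE1 (0.99). CYR61 was nearest to SASH1, ERC1 and PSMB4 (0.993, 0.993 and 0.992), and ANKRD1 to RAPGEF1, NSMAF and AFG3L2 (0.995, 0.98 and 0.98). To the mean z-score of the 10 members the nearest was ACTN1, the actin crosslinker alpha-actinin (r = 0.994), at 126 and 114 FPKM in Panc.8, 42.1 and 38.2 in HPAF-II, 176 and 211 in Panc.05.04, and 168 and 121 in Panc.10.05. PI4K2A, ANKRD52, PSMB4, DDX21, FADS2, CHST14, ABCB10, ERC1 and FANCG followed with r between 0.985 and 0.994. These r values are the top ones among 6521 genes, over 8 libraries from 4 lines, so they mostly describe line differences. A link of these genes with the members was not tested.

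For the coactivators themselves the 2 libraries of a line were close. YAP1 was at 62.0 and 62.1 FPKM in Panc.8, 154 and 159 in HPAF-II, 90.3 and 94.2 in Panc.05.04, and 50.5 and 53.9 in Panc.10.05. WWTR1, which encodes TAZ, was at 31.6 and 32.4 FPKM in Panc.8, 38.1 and 38.9 in HPAF-II, 22.9 and 20.8 in Panc.05.04, and 28.3 and 28.7 in Panc.10.05. Both coactivators thus had their highest transcript level in HPAF-II, the line whose 2 libraries both lay below the other 6 for 6 of the 10 targets. Their log2 ratios lay between -0.14 and 0.09, and the mean was 0.05 ± 0.04 for YAP1 and -0.01 ± 0.08 for WWTR1 (SD, n = 4 lines).

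Among the TEAD factors, TEAD1 was at 11.6 and 12.4 FPKM in Panc.8, 24.0 and 23.4 in HPAF-II, 38.7 and 65.3 in Panc.05.04, and 41.1 and 30.4 in Panc.10.05. Its log2 ratio was therefore 0.74 in Panc.05.04 and -0.42 in Panc.10.05, the directions of CTGF in those lines. The pathway components WWC1 (0.62 and -0.53) and NF2 (0.30 and -0.61) had these directions too, while VGLL4 had the reverse (-0.22 and 0.52). A link of TEAD1 with CTGF was not tested. TEAD4 had 0.32 and -0.36 in the same lines, TEAD3 0.18 and 0.31, and TEAD2 -0.12 and 0.57. TEAD2 was nearly absent from HPAF-II, at 1.07 and 0.837 FPKM.

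**Figure D4:**
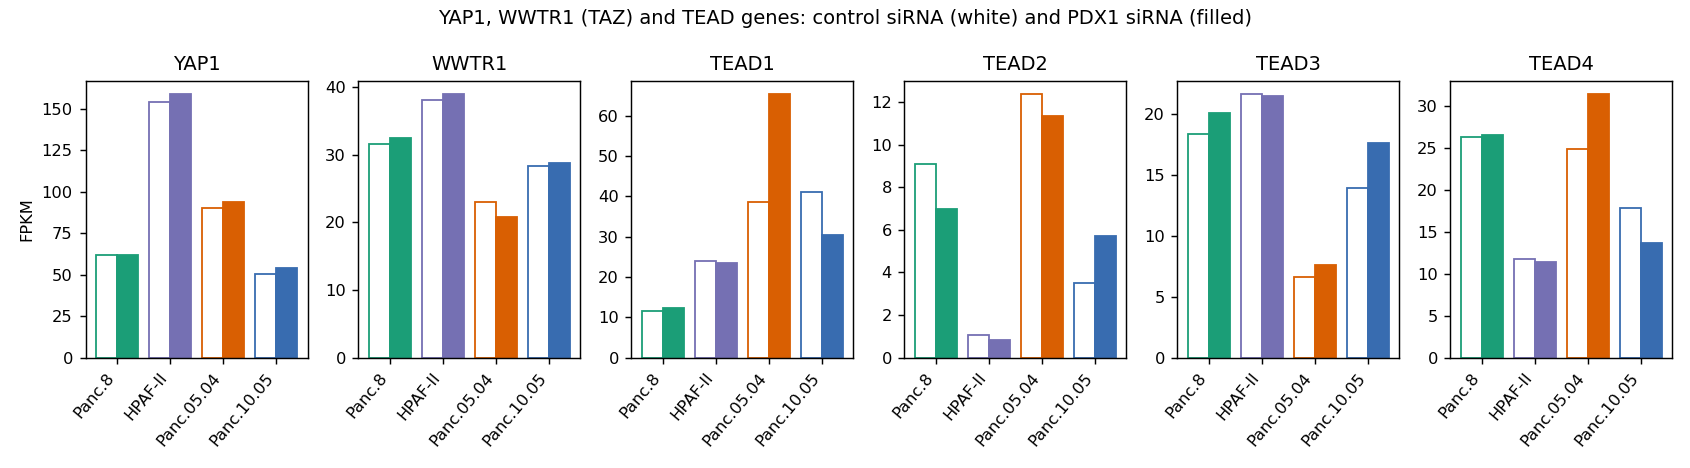
FPKM of YAP1, WWTR1 and the 4 TEAD genes in each line, with white bars for control siRNA and filled bars for PDX1 siRNA, 1 library each. The paired bars of YAP1 and WWTR1 are nearly level in every line and tallest in HPAF-II, while TEAD1 is taller with PDX1 siRNA in Panc.05.04 (38.7 and 65.3 FPKM) and shorter in Panc.10.05 (41.1 and 30.4 FPKM).

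Of 32 components of the pathway that are not among the 10, YAP1, WWTR1 and the TEAD genes included, 28 passed the filter, and limma called 0 of these at an adjusted p of 0.05. Among them the LATS-related kinase STK38 was the 1 gene under an unadjusted p of 0.05, as were 3.63% of all genes tested. It was higher in 4 of 4 lines, as were 7.45% of all genes tested. Its mean log2 ratio was 0.29 ± 0.13 (SD, n = 4 lines; adjusted p = 0.898 with limma). The median log2 ratio of the components was -0.0077 in Panc.8, -0.00058 in HPAF-II, 0.17 in Panc.05.04 and 0.0068 in Panc.10.05. At least 2-fold differences were found for 2 of them, both in Panc.10.05, 1 lower and 1 higher among 27 at 1 FPKM. Of all genes there, 3.09% were at least 2-fold higher and 1.71% lower. FRMD6, the Willin protein that acts upstream of the Hippo kinases, was at 23.7 and 7.74 FPKM there and at 45.55 and 62.4 in Panc.05.04. VGLL1, a TEAD cofactor that competes with YAP for TEAD, was at 13.2 and 36.7 FPKM in Panc.10.05, at 5.84 and 5.58 in Panc.8 and at or under 0.212 in the other lines. TAOK3, a kinase upstream of the cascade, had a mean log2 ratio of 0.18.

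A list of 29 further YAP/TAZ targets, of which 26 passed the filter, gave 0 genes at an adjusted p of 0.05 in limma. At an unadjusted 0.05 it gave 1, ARHGEF17 (mean log2 ratio 0.25, adjusted p = 0.898 with limma), against 3.63% of all genes tested. In Panc.10.05, 19 of the 26 were lower, 5 higher and 2 listed at 0 in both libraries, with a median log2 ratio of -0.47, where 50.5% of all genes tested were lower. CAV1 and PTRF, which build caveolae, had 224 and 85.1 FPKM and 70.9 and 30.8 FPKM respectively in that line, and the matrix glycoprotein THBS1 at 17.7 and 7.76 FPKM. In Panc.05.04 the median was 0.07 with 16 higher and 9 lower, and 55.8% of all genes tested were higher. INHBA, a TGF-beta family subunit, did not pass the filter over all libraries. It was the 1 gene of that list at least 2-fold lower in Panc.05.04, at 1.501 and 0.206 FPKM, against 0.639% of all genes. ANLN, an actin-binding protein of cell division, had a mean log2 ratio of -0.36. The medians in Panc.8 and HPAF-II were 0.04 and 0.05.

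Other programmes that share target genes with YAP were read alongside. Of 20 cytoskeletal targets of SRF and its cofactor MRTF, 19 passed the filter, and limma called 0 of them at an adjusted and 0 at an unadjusted p of 0.05. In Panc.8, 19 of 19 were lower, with a median log2 ratio of -0.15, against 51.1% lower among all genes tested, whereas 8 of 10 YAP/TAZ members were higher in that line. In Panc.10.05 11 of 19 were lower with a median of -0.18, against 50.5% of all genes tested. FLNA, which crosslinks actin filaments, was the 1 gene past 2-fold there, lower with 214 and 55.8 FPKM, against 1.71% of all genes. TPM1, ACTB and ACTG1 had mean log2 ratios of -0.22, -0.30 and -0.27. Of 13 AP-1 and immediate-early genes tested, FOSL1 (459 and 169 FPKM), JUN (24.0 and 7.71 FPKM) and KLF2 (74.4 and 18.3 FPKM) were at least 2-fold lower in Panc.10.05. Of all genes there, 1.71% were. No gene of that list was 2-fold different in another line. The list's median was 0.32 in Panc.8, 0.01 in HPAF-II, -0.23 in Panc.05.04 and -0.22 in Panc.10.05, and its part in the values of the 10 members was not tested.

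**Figure D5:**
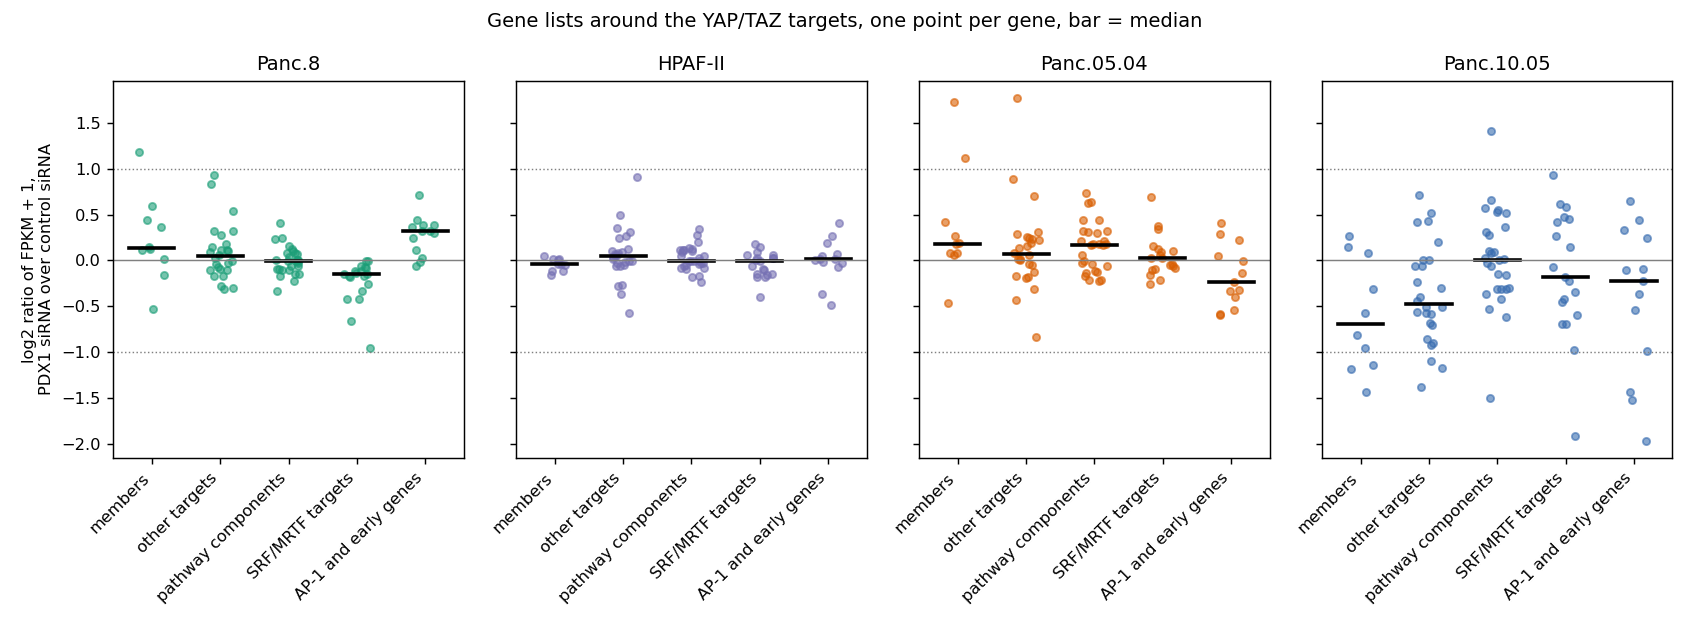
Log2 ratio of FPKM + 1, PDX1 siRNA over control siRNA, in each line for the genes of 5 lists that passed the filter, with 1 point per gene, a black bar for the median and dotted lines at 2-fold. The medians of the members and of the other targets lie lowest in Panc.10.05 (-0.69 and -0.47), those of pathway components stay between -0.0077 and 0.17, and the spread is smallest in HPAF-II.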

How the data were processed

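The tools named in the submitters' processing notes are TopHat2 (version 2), Cufflinks and Cuffdiff, with genome build hg38. Which tool did what, the annotation and the strandedness of the libraries are not stated there. Per the file headers, the authors deposited, in a table per line, an FPKM value for each of the 2 libraries with Cuffdiff's p-value and q-value. These compare 2 libraries, not the conditions, and are quoted as the authors'.

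All log2 ratios are of FPKM + 1, a scale that understates changes of low genes. Genes with a mean of at least 1 FPKM (12110) entered a limma fit (version 3.58.1, R 4.3.3) with a block for the line and a trended eBayes step (3 residual and 2.94 prior degrees of freedom), and adjusted by Benjamini and Hochberg. The pairing comes from the labelled cell line. Deviations from the group means correlated within lines (r between 0.844 and 0.963) and did not exceed -0.152 between lines. The fit was tested on simulated data. Python 3.11.15, numpy 2.4.6, pandas 2.3.3 and matplotlib 3.10.9 did the rest.

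The members and lists were chosen with earlier results of these data known. Named genes were PDX1, the 10 members, and the YAP1, WWTR1 and TEAD genes. From the lists of other targets, pathway components and SRF/MRTF targets, genes at least 2-fold different in a line and the 4 with the largest mean log2 ratios were named. 1 such gene is not reported here. The genes most alike in level were named by Pearson correlation. ARHGEF17, STK38 as the gene with p under 0.05, ACTN1's values, and the AP-1 genes were named after their values were seen. Alternatives were another pseudocount, other filters, median-centred ratios, each line left out, and no block.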

Additional observations from a re-analysis of the deposited data

Results flagged for a closer look

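In groups of 4 libraries, 30 sets of values of the 10 members were examined for a library far from the other 3 (Dixon's ratio of the gap to the range), and 6 stood out. The critical value gives about 1 in 20 only for independent, normally distributed values. FPKM levels of different lines, with both libraries of a line examined, do not meet that, so the count is not set against chance. CTGF in Panc.05.04 stood far above the other lines both with control siRNA (107 FPKM) and with PDX1 siRNA (234 FPKM). CYR61 (519 FPKM) and LATS2 (30.7 FPKM) did so in the PDX1 siRNA library of Panc.05.04. AMOTL1 was highest in the control library of Panc.8 (10.5 FPKM). For AXL, the log2 ratio of Panc.10.05 (-1.14) lay far below those of the other lines.

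CTGF had a log2 ratio of 1.12 in Panc.05.04 and -1.43 in Panc.10.05, each the only pair of libraries of its line. The difference between the lines was not tested, since neither line has a replicate.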

How the results depend on the processing

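No gene of the whole table and no member passed an adjusted p of 0.05 in limma with a pseudocount of 0.1, with no filter, with a minimum of 5 FPKM, with median-centred ratios or without any one line. At an unadjusted p under 0.05 these fits gave between 219 and 631 genes and, among the members, 1 without Panc.05.04 (PTPN14) and 0 otherwise. The fit without Panc.05.04 gave 536 of 12110 genes. With no replicate block, 0 genes and 0 members were called, and 2 genes had an unadjusted p under 0.05. Counts of members at least 2-fold different in a line were identical with a pseudocount of 0.1 and after median-centring. Changing the filter or dropping the block leaves the mean log2 ratio of a member as it is, so those settings could not alter its direction. Of 90 alternative values of the members' mean log2 ratios, those settings included, 84 kept their direction. The other 6 came from leaving out Panc.10.05, where CTGF turned to 0.36, CYR61 to 0.14, AXL to 0.0753, LATS2 to 0.0745 and AMOTL1 to -0.0063, or Panc.05.04, where AMOTL1 turned to -0.0177. With 1 line left out, CTGF ranged from -0.49 to 0.36, CYR61 from -0.40 to 0.14, AXL from -0.346 to 0.0753, LATS2 from -0.0777 to 0.0745 and AMOTL1 from -0.0177 to 0.0931. For CTGF, CYR61, AXL and LATS2, Panc.10.05 held the lowest ratio of the 4. The mean log2 ratio of PDX1 was -1.001 with a pseudocount of 0.1 and -1.20 without one. Total depth is unknown, so no counting interval is given, and ANKRD1 in HPAF-II is too low to read a ratio from.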
